A study of Mus musculus with 6 samples.

Results

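Mitochondrial complex I, the NADH dehydrogenase at the entry of the respiratory chain, was described through the 45 genes of the count table whose symbol starts with Nduf, of 21878 genes in all; none of the 45 is a pseudogene in RefSeq. RNA was taken from unsorted whole prefrontal cortex, from 3 mice in each of the 2 groups. Gls1_CamkIIaCre mice carried CamKIIα-Cre and 1 floxed copy of Gls1, the gene of the glutaminase that makes glutamate in neurons, beside 1 intact copy. Control mice were littermates with CamKIIα-Cre and 2 intact copies, and their genotype label is WT. The CamKIIα promoter drives Cre in excitatory neurons of the forebrain, so that by design the mutants are heterozygous mosaics in which other cell types keep both copies. Recombination in each cell type was not tested here. The design text calls homozygous mutants not viable. The labels give neither age nor sex. The labels number the mice but tie no mouse to a litter, so no pairing by litter could be used. The p-values set the difference between groups against the spread between mice within groups.

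Complex I takes electrons from NADH in a peripheral arm that stands in the mitochondrial matrix and passes them along iron-sulfur clusters to ubiquinone, while a membrane arm pumps protons. Core subunits, conserved from bacteria, carry out this chemistry. Some are made in the nucleus and others from mitochondrial DNA, and those of mitochondrial DNA were not analysed here. Accessory subunits surround the core and stabilise it, and assembly factors help to build the enzyme without staying in it. Neurons rely on this chain for most of their ATP, and inherited loss of complex I subunits gives Leigh syndrome and other brain diseases. The 45 genes fall into 7 core subunits, 9 accessory subunits of the peripheral arm, 19 of the membrane arm, the acyl carrier subunit Ndufab1 that sits in both arms, 7 assembly factors, and the pair Ndufa4 and Ndufa4l2. NDUFA4 was first counted in complex I and is now placed in cytochrome c oxidase, and Ndufa4l2 is its paralogue.

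Nuclear genes of the respiratory chain are known to share binding sites for NRF1, ETS factors such as GABP, and YY1 near their starts. The stretch running 250 bases before to 50 bases after the gene start was available from RefSeq (GRCm38.p6) for 39 of the 45 genes. It was searched on both strands for the core letters of each motif; the NRF1 core can share its last letters, ATG, with the YY1 core. The NRF1 core GCGCATG was in 7 of the 39 promoters (17.9%), against 7.42% of promoters of all tested genes. The YY1 core ATGGCGG was in 9 of the 39 (23.1%), against 8.52%. The ETS core CCGGAAG was in 5 of the 39 (12.8%), against 18.03% of tested genes. These matches describe letters in a window and show no binding. The 3 promoters below are those of Ndufb6 and Ndufa12, the genes with the smallest p-values described later, and of Ndufs4, a further gene that fell, picked after the search because it holds a YY1 core. They are printed 5′ to 3′ on the strand of the gene, with motif cores in capitals. In Ndufb6 these are an ETS core on the opposite strand at position -232 from the gene start and an NRF1 core at -77, and in Ndufs4 a YY1 core at 39. The Ndufa12 stretch holds none of the 3 cores. They lie at chr4:40279372-40279671 (minus strand), chr10:94198785-94199084 (plus strand) and chr13:114388045-114388344 (minus strand), in the order printed.
Ndufb6: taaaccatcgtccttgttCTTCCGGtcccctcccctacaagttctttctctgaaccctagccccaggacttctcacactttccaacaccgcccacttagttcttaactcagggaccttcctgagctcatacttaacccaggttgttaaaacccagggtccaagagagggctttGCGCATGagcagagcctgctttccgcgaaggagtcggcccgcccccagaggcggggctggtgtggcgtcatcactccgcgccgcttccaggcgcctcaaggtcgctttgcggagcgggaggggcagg
Ndufa12: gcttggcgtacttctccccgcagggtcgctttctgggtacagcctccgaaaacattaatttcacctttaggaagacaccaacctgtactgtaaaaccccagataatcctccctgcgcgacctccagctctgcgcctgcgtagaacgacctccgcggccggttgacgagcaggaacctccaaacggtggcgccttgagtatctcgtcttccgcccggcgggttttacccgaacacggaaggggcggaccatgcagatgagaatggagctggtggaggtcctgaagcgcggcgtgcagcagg
Ndufs4: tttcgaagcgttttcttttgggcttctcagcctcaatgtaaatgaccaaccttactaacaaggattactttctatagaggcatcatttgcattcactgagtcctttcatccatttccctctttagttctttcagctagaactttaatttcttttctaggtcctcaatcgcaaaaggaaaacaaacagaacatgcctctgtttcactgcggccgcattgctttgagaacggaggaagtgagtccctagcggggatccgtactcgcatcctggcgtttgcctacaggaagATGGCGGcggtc
Of the 12 genes that fell, named further on, 4 held the NRF1 core, 2 the YY1 core and 1 the ETS core, and 6 held at least 1 of them, as did 20 of all 39.

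The libraries held 17987807 to 19265382 counts in Gls1_CamkIIaCre mice, against 18665024 to 19330961 counts in control mice, and no pair of replicates agreed within sampling noise (chi-square per degree of freedom of 2.27 to 4.14). Levels below are CPM, the counts scaled to a common library size, on library sizes scaled by TMM, or the deposited FPKM, which divide by length and so allow genes to be compared. Differences are log2 fold changes of Gls1_CamkIIaCre over control from edgeR's quasi-likelihood test across 14440 genes, with p-values adjusted by Benjamini-Hochberg over all of them and a threshold of 0.05. All 45 genes passed the filter on low counts. Markers of other cells and regions differed between the groups. Beside the counts of markers, 4.29% of all tested genes fell and 3.95% rose. The summed level of 12 striatum markers was 304 to 350 CPM in Gls1_CamkIIaCre mice and 778 to 1306 CPM in control mice, and 10 of the 12 fell. The ranges of this sum lay far apart, and those of the other lists were closer. Of the other marker lists, 3 of 9 for oligodendrocytes fell (sums of 3191 to 3684 CPM in Gls1_CamkIIaCre mice and 3503 to 4161 CPM in control mice), 3 of 7 for interneurons (986 to 1173 CPM in Gls1_CamkIIaCre and 1164 to 1265 CPM in control mice) and 3 of 8 for astrocytes (5220 to 5400 CPM in Gls1_CamkIIaCre and 5287 to 5606 CPM in control mice). Likewise 3 of 8 for microglia fell (461 to 498 CPM in Gls1_CamkIIaCre mice and 503 to 561 CPM in control mice), 4 of 8 for endothelial and mural cells (346 to 373 CPM in Gls1_CamkIIaCre and 375 to 422 CPM in control mice) and 5 of 6 for meningeal fibroblasts (112 to 128 CPM in Gls1_CamkIIaCre and 145 to 161 CPM in control mice). Of 9 excitatory neuron markers, 1 rose and none fell (5445 to 6009 CPM in Gls1_CamkIIaCre mice and 5304 to 5604 CPM in control mice). In DESeq2 and in limma voom 2 of these 9 rose and none fell. No listed marker was at 0 in any library. Their part in the results below was not tested.

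Before any adjustment for gene length, complex I genes as a group were lower in the cortex of Gls1_CamkIIaCre mice by a small margin. Of the 45 genes, 12 fell (26.7%), where 4.29% of all tested genes fell, and none rose, where 3.95% of all tested genes rose. The 12 fell by 9.37% to 19.8%. They were accessory subunits of both arms and 2 assembly factors, and no core subunit was among them. Many complex I genes are short, and 13.6% of all tested genes with a transcript under 1000 bases fell. After length and GC were adjusted for, 3 of the 45 fell, where 2.62% of all tested genes fell. The median log2 fold change was then -0.014 over the 45 genes and 0.017 over all tested genes. With the implied lengths described further on, 1 of the 45 fell and their median was -0.0085. In bulk tissue, fewer cells of a type and less RNA per cell cannot be told apart.

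The summed level of the 45 genes was 2771, 2759 and 2760 CPM in Gls1_CamkIIaCre mice, against 3006, 2968 and 2918 CPM in control mice. The groups did not overlap, and the mutant sum was 6.76% lower. The median log2 fold change was -0.12 over the 45 genes and -0.0024 over all tested genes. Without correction, 38 of the 45 lay below 0, as did 50.8% of all tested genes. With the corrections for length given further on, 25 or 23 of the 45 lay below 0. The median over all tested genes was then 0.017 or 0.018, so the 50.8% does not serve as background there. In 21 of the 45 every mutant library was below every control library, a pattern found for 13.6% of all tested genes. The opposite order was found for Ndufs1 alone among the 45 and for 13.1% of all tested genes. Lower values in the mutants were thus the more common pattern among the 45 genes. DESeq2 gave 8 genes that fell (3.26% of all tested genes fell with it), limma voom gave 9 (3.73%), and neither gave 1 that rose. At an unadjusted edgeR p under 0.05, 26 genes were lower and 1, Ndufs1, was higher. No share of all tested genes was taken at this unadjusted threshold, here or below, so such counts have no background beside them. Calls in all 3 tools went in 1 direction. Control 1 held the highest value for 23 of the 45 genes and control 2 for 12. Without control 2 the number that fell was 6, without Gls1_CamkIIaCre 2 it was 4, and without Gls1_CamkIIaCre 3 it was 7. In the same order, 350, 218 and 438 of all tested genes fell, against 619 with every library kept. Without control 1, control 3 or Gls1_CamkIIaCre 1, the number of complex I genes was 8, 13 and 10. Of all tested genes 446, 542 and 396 then fell.

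**Figure D1:**
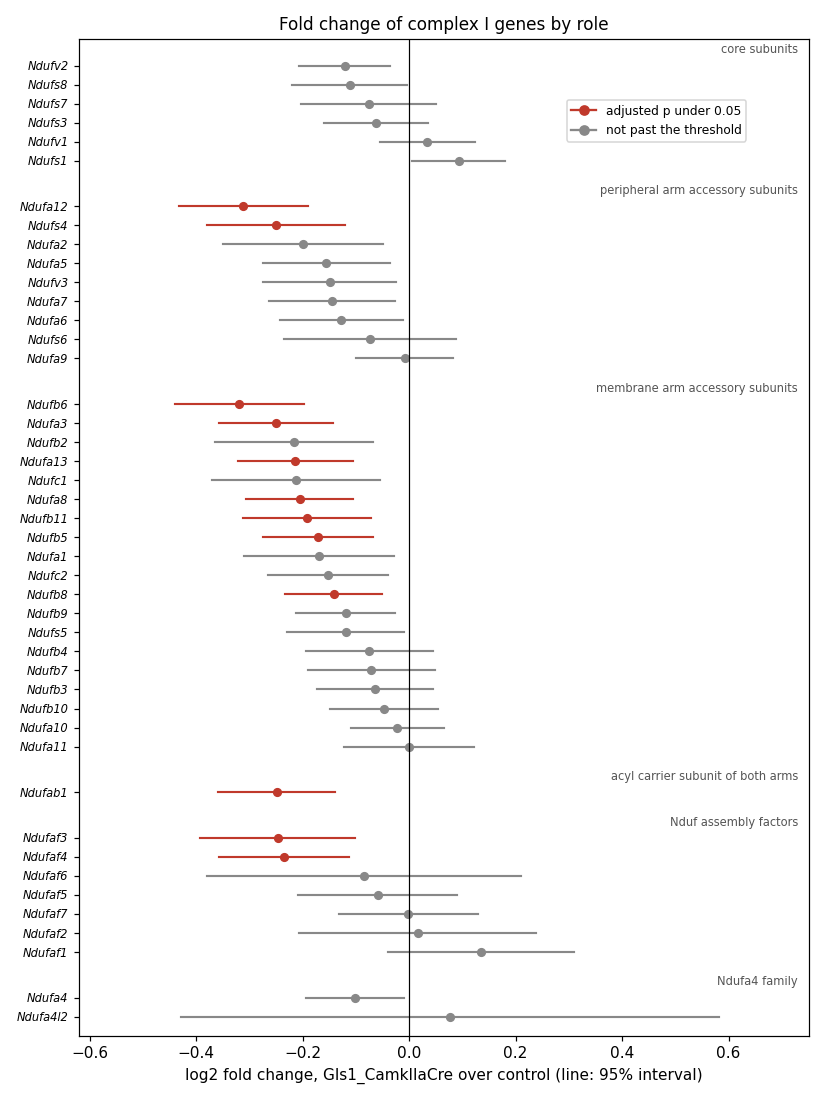
Log2 fold change of Gls1_CamkIIaCre over control for 44 of the 45 genes, grouped by role, with 95% intervals as lines and genes past the adjusted threshold of 0.05 in red. The 12 red genes are all below 0 and lie among the accessory subunits, the acyl carrier subunit and the assembly factors, while the core subunits straddle 0.

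The 7 nuclear core subunits carry the flavin, the iron-sulfur clusters and the ubiquinone site of the peripheral arm. None of the 7 passed the threshold in edgeR, DESeq2 or limma voom, and at an unadjusted edgeR p under 0.05 there were 2 lower and 1 higher. Their summed level was 742, 753 and 744 CPM in Gls1_CamkIIaCre mice and 748, 761 and 744 CPM in control mice, 0.634% lower in the mutants with overlapping groups. Ndufs1, which holds iron-sulfur clusters close to the NADH site, had 157, 162 and 169.7 CPM in Gls1_CamkIIaCre mice, against 149.5, 154 and 155 CPM in control mice. Each mutant library was above each control library, and the log2 fold change was 0.09 ± 0.042 (SE, adjusted p = 0.187). Ndufv2, which holds a further iron-sulfur cluster of the peripheral arm, had 117, 119 and 115 CPM in Gls1_CamkIIaCre mice, against 127, 128 and 128 CPM in control mice, at -0.12 ± 0.041 (SE, adjusted p = 0.0754). Its groups did not overlap. Ndufs8, an iron-sulfur protein near the ubiquinone site, was at -0.11 (adjusted p = 0.202), also with no overlap. Ndufs3, the core subunit of highest FPKM, was at -0.06 (adjusted p = 0.482) with overlapping groups. Ndufv2 shares bases with Ankrd12, which rose (0.22, adjusted p = 0.0057); since no source here says whether the counting used strand, reads of overlapping genes may be mixed.

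In the peripheral arm, 2 of the 9 accessory subunits fell, Ndufa12 and Ndufs4, where 4.29% of all tested genes fell. The median log2 fold change of the 9 was -0.15. Ndufa12 sits where the NADH-oxidising module meets the rest of the arm. It had 46.3, 53.7 and 52.8 CPM in Gls1_CamkIIaCre mice, against 65.0, 61.8 and 62.7 CPM in control mice. The groups lay well apart, with Gls1_CamkIIaCre 1 the lowest. Its log2 fold change was -0.31 ± 0.058 (SE, adjusted p = 0.0024), a level 19.4% lower. Ndufs4 stabilises the NADH-oxidising module, and mice without it develop a Leigh-like brain disease. It had 53.9, 45.7 and 47.8 CPM in Gls1_CamkIIaCre mice, against 60.5, 59.9 and 55.0 CPM in control mice. The highest mutant library came close to the lowest control library without reaching it, and the log2 fold change was -0.25 ± 0.062 (SE, adjusted p = 0.0164). Of those that did not pass, Ndufa2, whose fold resembles thioredoxin, was at -0.20 (adjusted p = 0.0952) with overlapping groups. Ndufa7, the subunit of this class with the highest FPKM, was at -0.14 (adjusted p = 0.123).

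In the membrane arm, 7 of the 19 accessory subunits fell, where 4.29% of all tested genes fell, and the median log2 fold change of the 19 was -0.15. The count was 4 in DESeq2, 4 in limma voom and 0 with the correction for transcript length and GC described further on (median -0.07), with which 2.62% of all tested genes fell. Ndufa3, Ndufa8 and Ndufa13 belong to the part of the arm next to the peripheral arm. Ndufb5, Ndufb6, Ndufb8 and Ndufb11 belong to its distal part, where proton pumping subunits made in the mitochondrion sit. Ndufb6 had 36.7, 35.2 and 37.8 CPM in Gls1_CamkIIaCre mice, against 44.9, 44.9 and 47.0 CPM in control mice, and means of 36.5 ± 1.33 CPM in Gls1_CamkIIaCre mice and 45.6 ± 1.24 CPM in control mice (SD, n = 3 each). Libraries within a group were close and the groups well apart. Its log2 fold change of -0.32 ± 0.058 (SE, adjusted p = 0.0020) had the smallest p among the 45 genes. Ndufa3 had 53.9, 54.2 and 53.7 CPM in Gls1_CamkIIaCre mice, against 65.2, 66.1 and 61.1 CPM in control mice. Its mutant libraries were nearly level with each other, and the log2 fold change was -0.25 ± 0.052 (SE, adjusted p = 0.0051).

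Ndufa13, also known as GRIM-19 for its part in cell death, had 83.4, 80.9 and 85.6 CPM in Gls1_CamkIIaCre mice, against 92.6, 92.7 and 104.7 CPM in control mice (-0.21, adjusted p = 0.0136). Control 3 stood above the other 2 control libraries, and the groups did not overlap. Ndufa8, a protein held by disulfide bonds on the intermembrane face of the arm, had 68.8, 65.4 and 67.6 CPM in Gls1_CamkIIaCre mice, against 75.03, 79.2 and 78.6 CPM in control mice (-0.21, adjusted p = 0.0117). Its groups were apart as well. Ndufb5 (-0.17, adjusted p = 0.0377), Ndufb11 (-0.19, adjusted p = 0.0442) and Ndufb8 (-0.14, adjusted p = 0.0478) passed by little. Ndufb11, an X-linked gene, had 68.1, 60.7 and 63.8 CPM in Gls1_CamkIIaCre mice, against 78.3, 67.9 and 73.7 CPM in control mice, and was the only one of the 12 whose groups overlapped. It shares bases with Rbm10, and Ndufa13 shares bases with Tssk6. The gene just outside the threshold was Ndufb2 (-0.22, adjusted p = 0.0652), followed by Ndufv2.

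Ndufab1, the mitochondrial acyl carrier protein, serves fatty acid synthesis in the mitochondrion as well as complex I. It had 50.4, 49.0 and 49.7 CPM in Gls1_CamkIIaCre mice, against 61.7, 59.0 and 56.6 CPM in control mice. The groups did not overlap, and the log2 fold change was -0.25 ± 0.053 (SE, adjusted p = 0.0062). Of all 29 accessory subunits, 10 fell in edgeR (4.29% of all tested genes), 7 in DESeq2 (3.26%) and 7 in limma voom (3.73%). None rose in any of these tools, and none was higher at an unadjusted edgeR p under 0.05. Their summed level was 1716, 1690.5 and 1698 CPM in Gls1_CamkIIaCre mice, against 1912, 1875 and 1843 CPM in control mice, 9.33% lower in the mutants. The contrast between core and accessory subunits was not tested. The 2 classes differ in length, with a median longest transcript of 1661 bases for core and 918 bases for accessory subunits. With the correction for length and GC content given further on, 2 of the 29 accessory subunits and none of the 7 core subunits fell, where 2.62% of all tested genes fell. Their median log2 fold changes were then -0.063 for accessory and 0.040 for core subunits. Ndufa12 and Ndufab1 each have an annotated pseudogene copy, whose reads the counting could have shared with them.

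**Figure D2:**
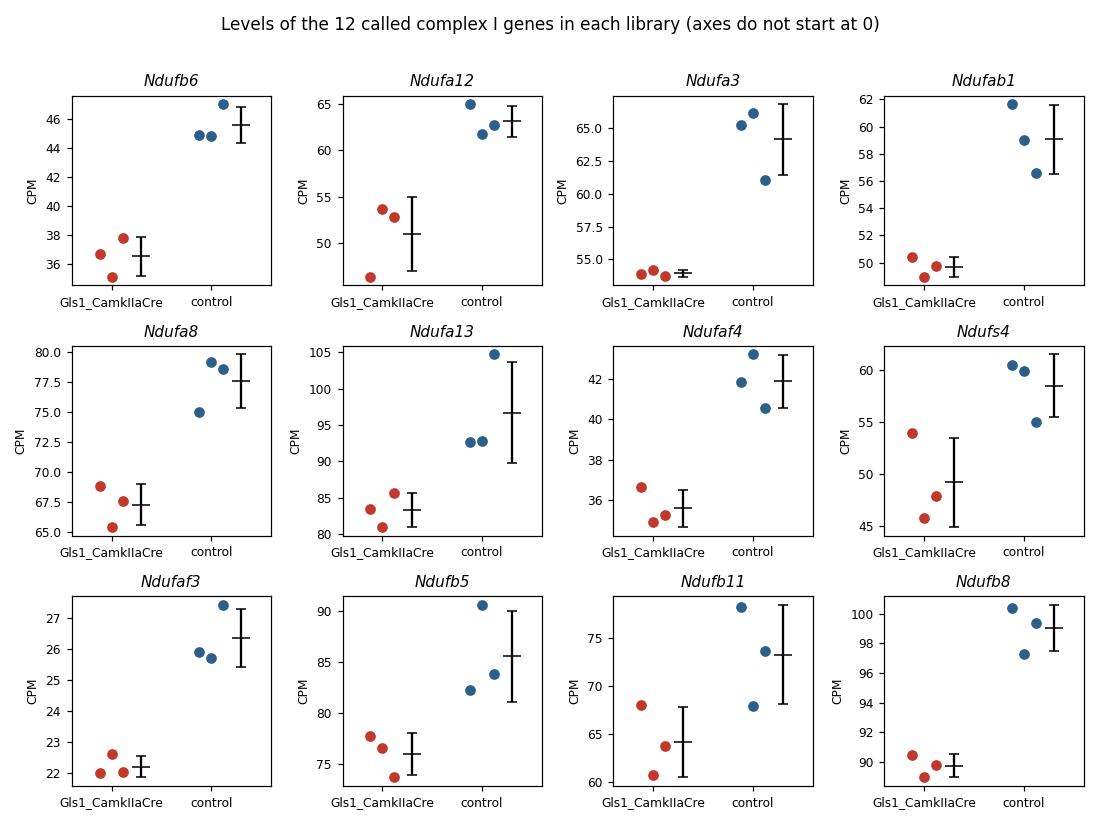
CPM of the 12 genes that fell, 1 panel per gene, with 1 point per library, Gls1_CamkIIaCre left and control right, and the mean with its SD as a bar beside the points; the vertical axes do not start at 0. In 11 of the 12 panels every mutant point is below every control point, and in Ndufb11 the groups overlap.

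Of the 7 assembly factors, 2 fell, Ndufaf3 and Ndufaf4, where 4.29% of all tested genes fell. Ndufaf3 did not pass in DESeq2 (adjusted p = 0.0973) nor with any 1 library left out. Ndufaf3 and Ndufaf4 bind each other and help to join the ubiquinone-binding module to the membrane. Ndufaf4 had 36.6, 34.9 and 35.2 CPM in Gls1_CamkIIaCre mice, against 41.9, 43.2 and 40.6 CPM in control mice (-0.24 ± 0.059 SE, adjusted p = 0.0163). Ndufaf3 had 22.0, 22.6 and 22.0 CPM in Gls1_CamkIIaCre mice, against 25.9, 25.7 and 27.4 CPM in control mice (-0.25 ± 0.070 SE, adjusted p = 0.0334). Neither gene had overlapping groups, and both differences were of the size seen for the subunits. The groups of the other 5 overlapped. Ndufaf1, part of the complex that builds the membrane arm, was at 0.13 (adjusted p = 0.373), and Ndufaf2, the paralogue of Ndufa12 that holds its place during assembly, was at 0.02 (adjusted p = 0.953). Ndufaf5, which modifies an arginine of Ndufs7, was at -0.06 (adjusted p = 0.689), and Ndufaf7, a methyltransferase that acts on a core subunit, was at -0.0016 (adjusted p = 0.991). Ndufaf6 was at -0.08 (adjusted p = 0.785). The later named Ndufaf8 stands in the table under an older symbol and so outside the 45; it was at -0.26 (adjusted p = 0.225).

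Ndufa4, the subunit now placed in cytochrome c oxidase, had 149.99, 153 and 152 CPM in Gls1_CamkIIaCre mice, against 173, 157 and 157 CPM in control mice. The mutant libraries were all below the control libraries, of which control 1 stood highest, and the log2 fold change was -0.10 ± 0.044 (SE, adjusted p = 0.174). Ndufa4l2, known as a hypoxia-induced gene, was low, with 2.89, 2.67 and 1.69 CPM in Gls1_CamkIIaCre mice and 2.35, 2.10 and 2.42 CPM in control mice, and its groups overlapped (0.08 ± 0.24 SE, adjusted p = 0.898).

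Per length, the genes covered a wide range of levels. The highest FPKM were those of Ndufa4, at 294 ± 15.5 in Gls1_CamkIIaCre mice and 315 ± 10.4 in control mice (SD, n = 3 each), and of Ndufa3, at 241 ± 12.1 in Gls1_CamkIIaCre mice and 298 ± 13.2 in control mice. The FPKM ranges of Ndufa4 and Ndufa3 lay apart in Gls1_CamkIIaCre mice and overlapped in control mice. Within each control library Ndufa4 was above Ndufa3, in control 2 by little (310.8 against 310.5 FPKM). Ndufb9, another membrane arm subunit, followed with 183 ± 3.43 FPKM in Gls1_CamkIIaCre mice and 202 ± 7.83 FPKM in control mice. In control mice the core subunits lay between 34.6 and 78.3 FPKM, the accessory subunits of the membrane arm between 16.4 and 298 FPKM, and those of the peripheral arm between 8.93 and 131 FPKM. Assembly factors lay between 1.16 FPKM for Ndufaf6 and 27.6 FPKM for Ndufaf3, below every core subunit. Counts and FPKM together imply the length that the FPKM were divided by, and for several genes this was far from the longest annotated transcript. It was 217 bases for Ndufa3, whose longest GENCODE transcript has 782 bases, and 5576 bases for Ndufv3, whose longest has 2021, so the order of levels depends on it.

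**Figure D3:**
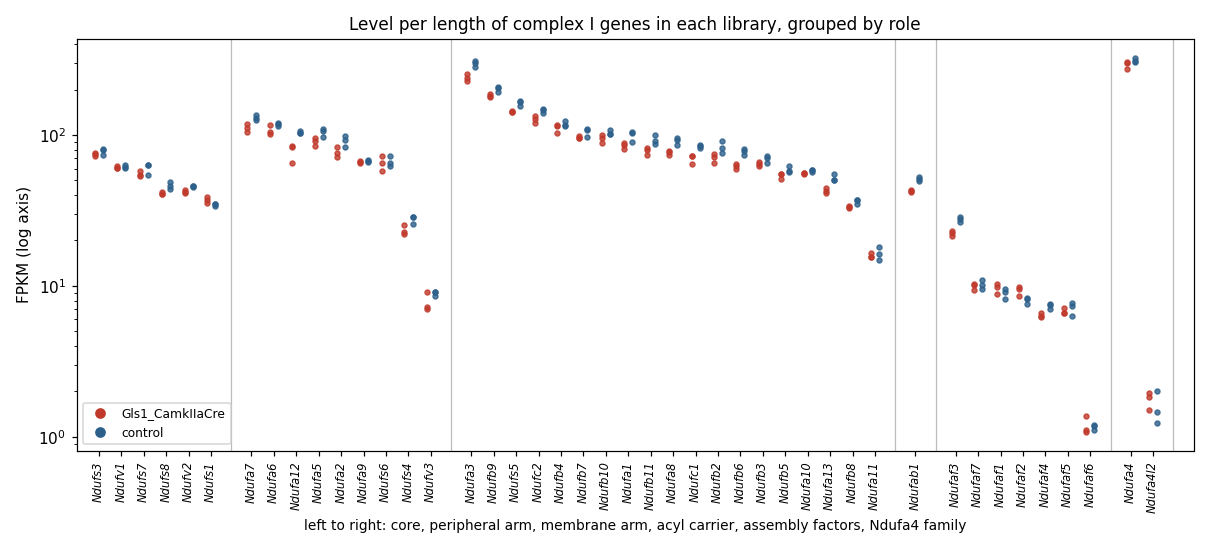
FPKM (log axis) of 44 of the 45 genes in each library, Gls1_CamkIIaCre points left and control points right of each gene's position, genes grouped by role. Subunits fill the range of about 8.93 to 298 FPKM in control mice, and assembly factors lie at the low end, between 1.16 and 27.6 FPKM.

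The rest of the respiratory chain gave the following counts, where 4.29% of all tested genes fell. Of all tested genes with a transcript under 1000 bases 13.6% fell, and the median transcript of the complex IV genes has 765 bases. Of 11 subunits of cytochrome c oxidase (complex IV), 7 fell and none rose, among them Cox6a1 (-0.16, adjusted p = 0.0238), Cox6c (-0.16, adjusted p = 0.0276), Cox8a (-0.16, adjusted p = 0.0290) and Cox7b (-0.16, adjusted p = 0.0301). These are small nuclear subunits around the catalytic core made in the mitochondrion. Of 15 ATP synthase subunits, 4 fell, Atp5j2 (-0.33, adjusted p = 0.00037), Atp5l (-0.23, adjusted p = 0.0035), Atp5g3 (-0.14, adjusted p = 0.0378) and Atp5d (-0.14, adjusted p = 0.0446). The catalytic subunit gene Atp5b, named here after its value was seen, was at -0.0011 (adjusted p = 0.990). Of 9 complex III subunits, 1 fell, Uqcrq (-0.16, adjusted p = 0.0417), and of 8 genes of complex II and its assembly, 1 fell, the assembly factor Sdhaf4 (-0.37, adjusted p = 0.0377). In DESeq2 and limma voom the counts that fell were 5 and 5 for complex IV, 3 and 3 for ATP synthase, 0 and 0 for complex III and 0 and 1 for complex II. With the correction for length and GC given further on they were 0 for complexes II, III and IV and 2 for ATP synthase, where 2.62% of all tested genes fell. Of 12 complex I assembly factors with other names, such as Ecsit and Acad9, none passed in edgeR, DESeq2 or limma voom, and 1 was lower at an unadjusted edgeR p under 0.05. Of 11 regulators of respiratory gene expression, among them Ppargc1a, Nrf1 and Tfam, none passed in any of the 3 tools, nor at an unadjusted edgeR p under 0.05. No gene of these lists rose in edgeR.

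The complex I genes are short, and fold changes over all tested genes differed with transcript length. The longest GENCODE transcript had a median of 1200 bases over the 45 genes and 3489 bases over all tested genes. Of the 491 tested genes with a transcript under 1000 bases, 13.6% fell and 0.815% rose, and their median log2 fold change was -0.13. Of the 5742 with a transcript of 4000 bases or more, 2.80% fell and 7.35% rose, with a median of 0.034. Short genes were thus lower more often, and long genes higher more often, in the mutants. The 18 complex I genes under 1000 bases had a median of -0.13, the same to this precision as all tested genes of that class, and 4 of them fell. The 16 genes of 1000 to 2000 bases had a median of -0.11, against -0.06 for all tested genes of the class, and the 9 genes of 2000 to 4000 bases had -0.14, against -0.01. In each of these 2 classes 4 complex I genes fell, where 6.32% and 4.26% of all tested genes of the class fell. The 2 genes of 4000 bases or more, Ndufb2 and Ndufb7, had a median of -0.144, against 0.034, and neither fell. Their implied lengths were only 386 and 420 bases. By implied length, the complex I genes under 1000 bases had a median of -0.153, against -0.140 for all tested genes. At 1000 to 2000 bases it was -0.062 against -0.064, and at 2000 to 4000 bases -0.022 against -0.030. The 4 genes of 4000 bases or more by implied length had -0.117, against 0.024. From the shortest implied class to the longest, 6 of 23, 3 of 9, 2 of 9 and 1 of 4 complex I genes fell. In the same order, 18.1%, 7.13%, 4.75% and 2.92% of all tested genes of the class fell. Across the 45 genes, the log2 fold change had little relation to the longest transcript (Spearman rho of 0.11). With the implied length the rho was 0.38. The points share their libraries.

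**Figure D4:**
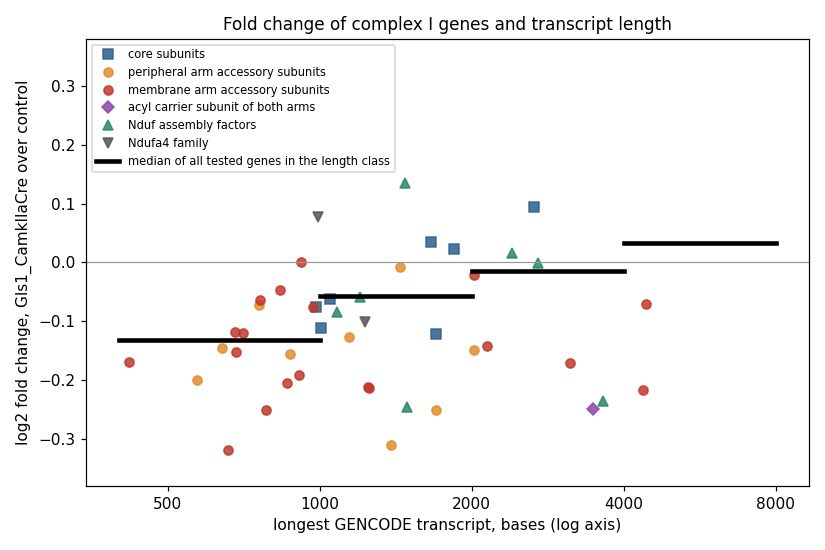
Log2 fold change of the 45 genes against the length of the longest GENCODE transcript (log axis), with symbols by role and black bars for the median of all tested genes in each length class. The black bars rise with length, at -0.13 under 1000 bases and 0.034 at 4000 bases or more, and the short complex I genes scatter around the bar of their class.

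With a correction for the trend of each library with transcript length and GC content, 3 of the 45 genes fell, where 2.62% of all tested genes fell, and none rose, where 3.29% did. The 3 were Ndufa12 (-0.22, adjusted p = 0.0287), Ndufab1 (-0.23, adjusted p = 0.0132) and Ndufaf4 (-0.22, adjusted p = 0.0283). The median over the 45 genes was -0.014, against 0.017 over all tested genes. Corrected for length alone, 3 of the 45 fell, and corrected for GC content alone, 8. Of the 14337 genes in each of these fits, 370 fell with length alone and 465 with GC content alone. Ndufb6 was at -0.19 (adjusted p = 0.0695) with both corrections and Ndufa3 at -0.13 (adjusted p = 0.130). Which genes passed differed with the length used. Ndufab1 has a longest transcript of 3479 bases and an implied length of 1160 bases. With the implied lengths, a choice made after seeing the data, only Ndufaf4 fell (-0.22, adjusted p = 0.0283), where 2.48% of all tested genes fell, and Ndufab1 (-0.15, adjusted p = 0.0888) and Ndufa12 (-0.18, adjusted p = 0.0791) kept their direction and did not pass. Whether the dependence on length arose in the tissue or in the libraries was not tested.

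**Figure D5:**
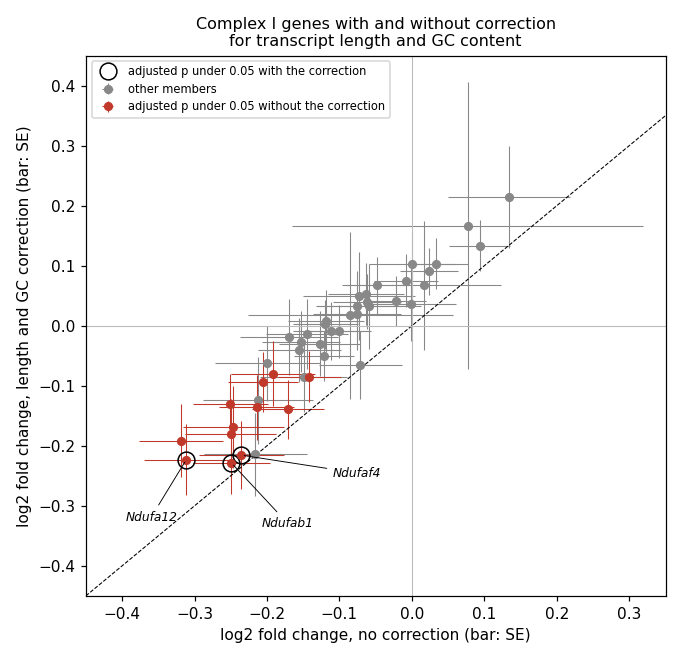
Log2 fold change of the 45 genes without (horizontal axis) and with (vertical axis) a correction for the length and GC content of the transcript, bars showing the SE, genes that fell without it in red and those that fell with it ringed. All 45 points lie above the dashed line of equality, and the ringed genes are Ndufa12, Ndufab1 and Ndufaf4.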

How the data were processed

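Bulk RNA sequencing was measured in 6 libraries, 3 per group, prepared from total RNA per the labels' protocols. The authors deposited 1 table of read counts per gene and 1 table of FPKM (fragments scaled by transcript length and library size) for the same libraries; the builds GRCm38 and mm10 are named in the submitters' processing notes, while the aligner, the counting tool and its strand setting are not stated in any source used here. All value columns were mapped to samples by name. Symbols stored as dates (27) were restored through RefSeq, and 21727 of 21878 rows matched a RefSeq gene.

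The test on counts was that of edgeR 4.0.16, run in R 4.3.3 (TMM, filterByExpr with a minimum count of 10, robust quasi-likelihood fit, no covariates), which kept 14440 genes, and p-values were Benjamini-Hochberg adjusted over all of them at 0.05. DESeq2 1.42.0 and limma 3.58.1 (voom, and log2(FPKM + 1) or log2(FPKM + 0.1) of the deposited FPKM, where a fold understates the change of low genes) were alternatives, with other scalings, filters, a replicate block, each library left out, and corrections by natural splines with 4 degrees of freedom for length and GC content (genes of 20 or more mean counts). The edgeR test was also run on simulated data, where it found 36% of genes changed 1.2-fold and 75% of those changed 1.5-fold. A gene that did not pass may thus still have changed by a small amount. Same-numbered libraries were not taken as pairs.

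The members, role classes and marker lists were chosen with earlier results of these data known. Genes named are those past the threshold, in each role class the 3 of smallest p and the one of highest FPKM, Ndufa4, Ndufa4l2 and all assembly factors; a few others were named after their values were seen. Promoters were searched for shortened motif cores in place of the longer forms first planned. With 3 libraries per group, precision is limited by the spread between mice. The levels of the targeted gene and of 1 member, which is counted in the totals, are not reported here. Protein sequences were not used here.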

Additional observations from a re-analysis of the deposited data

How the results depend on the processing

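No complex I gene rose under any of the 20 alternatives, and the number that fell stayed between 8 and 15 outside the corrections for length and the fits with a library left out. It was 12 with DESeq2 size factors, 14 with upper-quartile factors, 12 without the filter, 12 at a mean of 50 counts or more, 9 with the non-robust fit, 11 with limma on log2(FPKM + 1) and 12 on log2(FPKM + 0.1). With the correction for length and GC content it was 3 and the median log2 fold change -0.014; with length alone, added after seeing the data, 3 and -0.019; with the implied length, also added, 1 and -0.0085. Leaving out 1 library gave 4 to 13, and 415 to 1098 genes called in all. The fits on FPKM called 672 (pseudocount 1) and 733 (0.1) genes in all, against 1190 on counts; 18.2% and 17.2% of these were higher, against 48.0% on counts, 36.4% with upper-quartile factors and 62.7% with the GC correction alone. The summed FPKM of a library was 238924 to 243144 in Gls1_CamkIIaCre mice and 249602 to 252272 in control mice. A replicate block gave 15 complex I genes and 1758 genes in all; same-numbered libraries correlated at 0.139, -0.026 and 0.140, and Gls1_CamkIIaCre 2 correlated best with control 1, so the numbers were not taken as pairs. Of the 20 alternatives, Ndufa12 and Ndufab1 passed in 19, Ndufb6 and Ndufa3 in 17, Ndufaf4 in 16, Ndufa8 and Ndufa13 in 15, Ndufs4 in 11, Ndufaf3 and Ndufb11 in 9, Ndufb5 in 7 and Ndufb8 in 4. The 38 genes below 0 became 25 with the correction for length and GC content and 23 with the implied length. Of the genes named by the rule, those whose sign turned had not passed: Ndufaf7 (2.1e-05 with voom, 0.036 with length and GC, 0.038 with length, 0.0072 with GC, 0.039 with implied length; -0.041 to 0.037 with a library left out, among them 0.0020 and 0.020), Ndufaf2 (-0.00033 with upper-quartile factors; -0.058 to 0.105 with a library left out), Ndufaf6 (0.013 and 0.019 on FPKM, 0.018 with length and GC, 0.012 with length), Ndufaf5 (0.032 with length and GC and with length alone), Ndufs3 (0.040 with length and GC, 0.036 with length, 0.041 with implied length), Ndufa4 (0.040) and Ndufa7 (0.013) with implied length, and Ndufa4l2 (-0.074 to 0.283 with a library left out). The causes of these shifts were not tested. Counts per gene ran from 32 to 3392 in the 45 genes, so depth limits the statements on Ndufa4l2 and Ndufaf6 most.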
